A study of Mus musculus with 18 samples.

Results

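The citrate cycle and fatty acid oxidation genes described here are 37 genes for enzymes and carriers, chosen by name: 14 of the citrate cycle, 5 of the pyruvate dehydrogenase step, 3 of the carnitine shuttle, 12 of beta-oxidation and 3 of electron transfer from acyl-CoA dehydrogenases. They are 37 of the 26114 gene names in the count table of dataset 1 and of the 29195 in that of dataset 2, and all 37 had UMIs in every pool. Their levels were compared between parietal cells, the acid-secreting cells of the gastric corpus, and the isthmus, neck, chief and pit cells of the same epithelium. Single cells had been measured by Quartz-Seq2, a plate-based method in which each cell is sorted into a well and each transcript molecule is counted once, near its 3′ end, through a unique molecular identifier (UMI). All cells came from untreated wild-type (WT) male C57BL/6J mice aged 10 weeks, and no group carried a transgene or a treatment. By the sample labels, dataset 1 held cells of corpus and antrum gastric units sorted as ToPro3(-). Dataset 2 held cells of corpus gastric units sorted as Hoechst33342(+), ToPro3(-). For dataset 1 the paper instead names propidium iodide as the dye for dead cells. Each dataset comprised 2 pools of 3 mice (called tube1 and tube2 in dataset 1, K and T in dataset 2), so n = 2 pools throughout and the animals of a pool cannot be told apart.

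Acetyl-CoA enters the citrate cycle from pyruvate, through the pyruvate dehydrogenase complex, and from fatty acids, which cross the inner mitochondrial membrane as carnitine esters and are shortened stepwise by beta-oxidation. The cycle and the beta-oxidation spiral hand their electrons to the respiratory chain, which drives ATP synthase. Parietal cells pump protons into the gastric lumen with an ATPase and are among the cells richest in mitochondria.

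The cell groups were the authors' clusters, so the label was checked first. *Atp4a* and *Atp4b*, the subunits of the gastric proton pump, were at 23994 and 22398 CPM and at 20539 and 19076 CPM in the parietal cells of pools K and T (CPM, UMIs per 1000000 UMIs of the sum after TMM scaling). Every other type of dataset 2 had at most 714 CPM of *Atp4a* and 189.5 CPM of *Atp4b*, so the label held. Dataset 2 had 400 and 302 parietal cells in pools K and T, in clusters 1 and 8, and dataset 1 had 17 and 40 in tube1 and tube2, in cluster 0. The sums of a type in a pool of dataset 2 held 2165683 to 29539575 UMIs. Parietal clusters also carried markers of other types: the enterocyte list summed to 11140 UMIs per 1000000 UMIs (unscaled) in cluster 1 and 5933 in cluster 8, against at most 201.6 in any other cluster of dataset 2. Most of this was the apolipoprotein gene *Apoa1* (10076 and 9842 CPM in parietal cells), with *Alpi*, a defining enterocyte gene, at 0. The chief cell list, mostly *Pgc*, summed to 4119 in cluster 1 and 11930 in cluster 8. The paper reports *Pgc* mRNA in most gastric epithelial cells, so it is not specific to chief cells. The part of the transcripts of both lists in the results below was not tested.

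Together the 37 genes made up a larger share of the RNA in parietal cells than in any other cluster (UMIs of the members as a percent of all UMIs outside the mitochondrial genome). In dataset 2 the share was 2.38% and 2.46% in cluster 8 and 2.11% and 2.15% in cluster 1 for pools K and T. The isthmus, neck and pit clusters lay between 0.49% and 0.794%. Chief cells were the lowest epithelial type at 0.328% and 0.337%, near the 0.250% to 0.313% of leukocytes and endothelial cells. These shares are not TMM-scaled, and the TMM factors were 0.690 and 0.679 for chief but 1.227 and 1.186 for neck sums. After scaling, the median log2 fold change of the members in chief against neck cells was only −0.138 (−0.068 over all genes). In dataset 1 the parietal share was 2.39% and 2.43%, and the other named types had 0.615% to 0.837%. A further cluster of dataset 1, 5-7, stood between them at 1.42% and 1.47% and is described below. Plates of a pool, which are technical replicates, ranged from 2.15% to 2.41% in parietal cells of dataset 2 and from 0.299% to 0.365% in chief cells. The share of UMIs from the mitochondrial genome also differed. Its median was 23.1% and 21.8% in cluster 1 and 11.99% and 13.9% in cluster 8. In dataset 1 it was 17.6% and 17.4% in parietal cells and 12.99% and 14% in cluster 5-7. The other types tested in either dataset had 3.4% to 5.9%.

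**Figure D1:**
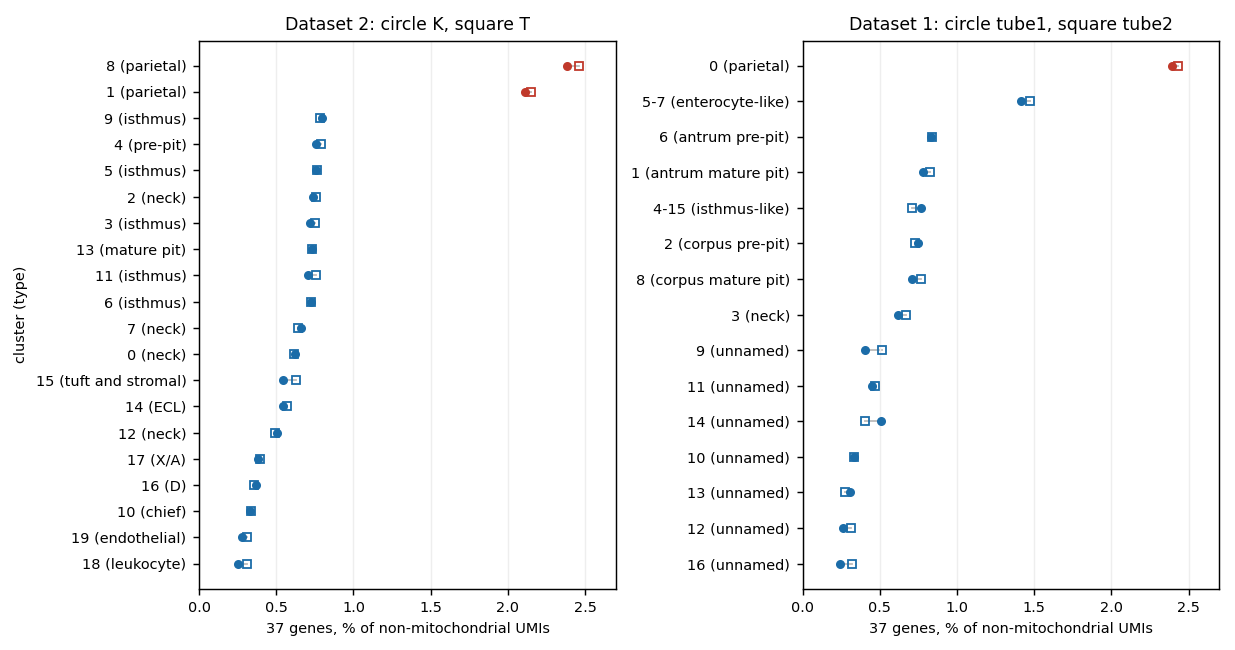
Share of the 37 genes in the UMIs outside the mitochondrial genome (percent, x axis) for each cluster of both datasets, 1 point per pool. Parietal clusters lie between 2.11% and 2.46%, cluster 5-7 of dataset 1 at 1.42% and 1.47%, and all others at most at 0.837%.

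Against the mean of the other types of dataset 2, 36 of the 37 members were higher in parietal cells and none was called lower (edgeR quasi-likelihood test over 13894 genes, Benjamini-Hochberg adjusted p under 0.05). The same test called 35.2% of all genes higher and 32.6% lower. The median log2 fold change was 1.92 for the members and −0.03 for all genes, and 34 members were over 2-fold and 14 over 4-fold higher. For 35 members both parietal pools lay above every other pool of the dataset, against 21.8% of all genes. The exceptions were *Cpt2* and *Acaa2*. In dataset 1, 35 members were higher and 1, *Acaa2*, was lower, where 31.7% and 26.9% of 10229 genes were called in these directions. Its median was 1.67 against −0.01 for all genes, 32 members were over 2-fold higher, and for 33 members, against 20.7% of all genes, both parietal pools lay above all others. The same 35 genes were called higher in both datasets. Because the clusters were made from these counts, the p-values describe how far apart the clusters lie.

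**Figure D2:**
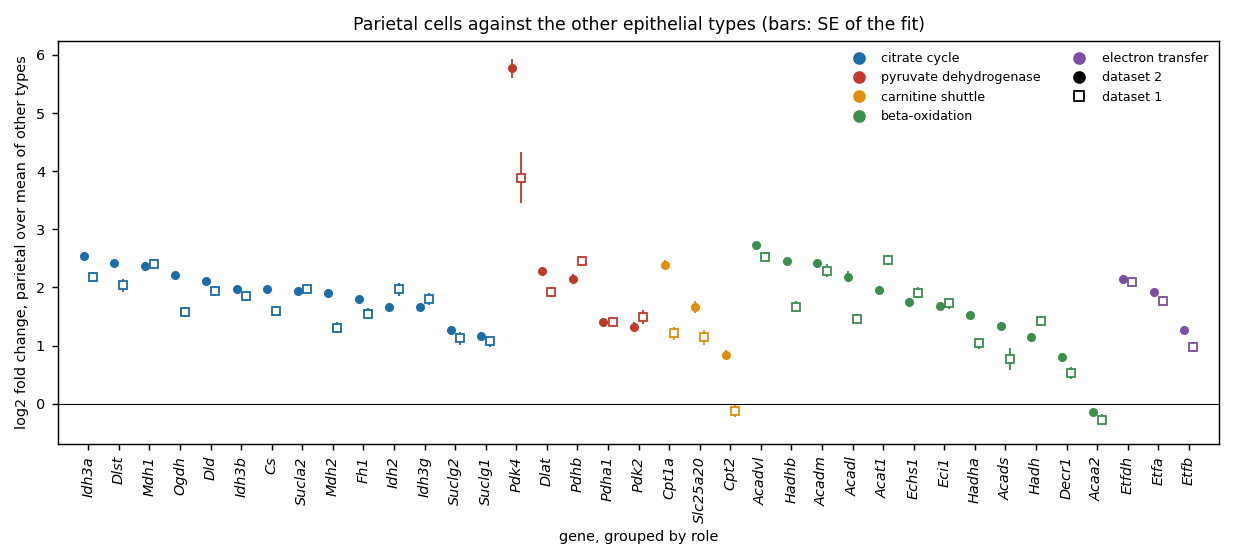
Log2 fold change of each member in parietal cells against the mean of the other types (y axis), in dataset 2 (filled) and dataset 1 (open), with bars of 1 standard error, grouped and coloured by role (x axis). *Pdk4* is highest at 5.77 and 3.89, while *Acaa2* lies at −0.14 and −0.27 and *Cpt2* at 0.84 and −0.12.

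All 14 citrate cycle members were higher in parietal cells of dataset 2, with log2 fold changes of 1.16 to 2.54 and a median of 1.95. *Idh3a* (chr9:54493575-54514730, GRCm39, plus strand), the catalytic subunit of NAD-dependent isocitrate dehydrogenase, was at 636 CPM in pool K and 696 CPM in pool T. The other types had 72.7 to 157 CPM of it, so the groups did not overlap, and the log2 fold change was 2.54 ± 0.07 (SE, adjusted p from edgeR = 4.97e-13). *Dlst*, the succinyltransferase of the 2-oxoglutarate dehydrogenase complex, followed at 2.42 with 449 and 481 CPM against 63.7 to 107 CPM. *Mdh1* (chr11:21506423-21522367, minus strand), the cytosolic malate dehydrogenase of the malate-aspartate shuttle, was at 2127 and 2331 CPM in parietal cells and 359.9 to 512 CPM elsewhere, a log2 fold change of 2.37. Apart from succinyl-CoA ligase, the other members of the cycle were higher by 1.66 (*Idh3g*) to 2.21 (*Ogdh*, which encodes the first enzyme of the 2-oxoglutarate dehydrogenase complex), with *Idh2* at 1.67, *Fh1* at 1.79, *Mdh2* at 1.90 and *Idh3b* and *Cs* at 1.97. Citrate synthase, *Cs* (chr10:128172837-128198363, plus strand), which opens the cycle, was at 1082 and 1164 CPM against 153 to 492 CPM.

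The smallest changes of the cycle were in *Suclg1* and *Suclg2*, which encode subunits of succinyl-CoA ligase, an enzyme that conserves energy as GTP or ATP. The shared subunit *Suclg1* was at 515 and 567 CPM in parietal cells and 207 to 304 CPM in the other types, a log2 fold change of 1.16 ± 0.06 (SE). Its GTP-forming partner *Suclg2* had 344 and 326 CPM against 92.3 to 159 CPM (1.27), and its ATP-forming partner *Sucla2* had 371 and 378 CPM against 86.1 to 116 CPM (1.93). Parietal and other pools were thus apart for all 3 subunits, and the change was smaller for *Suclg1* and *Suclg2* than for *Sucla2*. In dataset 1 the 14 genes spanned 1.07, again *Suclg1*, to 2.41.

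The 5 members of the pyruvate dehydrogenase step were also all higher. *Pdk4* (chr6:5483097-5496339, minus strand), a kinase that inactivates the complex and is induced in fasting in many tissues, was at 42.3 and 42.0 CPM in parietal cells. Pool values of the other types ran from 0 to 3.21 CPM, the highest in mature pit cells, and the log2 fold change of 5.77 ± 0.16 (SE) was the largest of all members. In chief cells no UMI of *Pdk4* was counted in pool K, so that parietal cells, with 713 UMIs, were at least 25.2-fold higher there (floor of 3 UMIs in the chief sum). Pool T had 2 UMIs in chief cells and 578 in parietal cells, a ratio of 54.6 (exact 95% interval 15.0 to 452, counting error only). At least 1 UMI was found in 56.8% and 56.6% of parietal cells, 7.55% and 13.2% of mature pit cells, 5.12% and 4.04% of isthmus cells and 0.621% and 1.16% of neck cells.

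The level of this gene in dataset 1, *Pdk4*, rested more on one pool. Its parietal cells had 16 UMIs (15.6 CPM) in tube1 and 148 UMIs (70.2 CPM) in tube2, both above the 0 to 12.4 CPM of the other types. The log2 fold change was 3.89 ± 0.43 (SE) and fell to 2.29 without tube2. Neck cells of dataset 1 had no UMI, so this value depends in part on the prior count of the fit. Outside the tested types, the D cells of dataset 2, which make somatostatin, had 34.4 and 16.4 CPM of *Pdk4*, from 7 and 5 UMIs. Cluster 5-7 of dataset 1, also outside the tested types, had 58.6 and 113.6 CPM of *Pdk4*. Parietal cells had 17.3 and 79.2 CPM on the same scaling over all clusters, so the pools overlapped.

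The second kinase, *Pdk2*, differed less than *Pdk4*. Its parietal pools had 126 and 134 CPM, with 74.9 and 99.4 CPM in chief cells and 33.0 to 66.8 CPM in the rest, a log2 fold change of 1.32. Genes of the complex itself were higher by 2.28 (*Dlat*, the acetyltransferase), 2.15 (*Pdhb*) and 1.41 (*Pdha1*, both subunits of the decarboxylase) on the log2 scale. *Pdha1* had 699 and 752 CPM in parietal cells and at most 315 CPM, in neck cells, elsewhere. The third enzyme of the complex, *Dld*, which is counted with the cycle because 2-oxoglutarate dehydrogenase shares it, had 579.5 and 587 CPM against 112 to 155 CPM.

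In the carnitine shuttle the 3 members differed from each other. *Cpt1a* (chr19:3371853-3437996, plus strand), which forms acylcarnitine at the outer membrane and is the step inhibited by malonyl-CoA, had 311 and 299.6 CPM in parietal cells. Mature pit cells had 155 CPM in both pools, and chief cells, the lowest, had 20.1 and 20.4 CPM. Its log2 fold change was 2.39 against the mean of the other types, 1.34 against pit cells and 3.91 against chief cells. *Slc25a20*, the carnitine-acylcarnitine translocase, had 66.6 and 75.8 CPM against 13.9 to 49.6 CPM (1.66). *Cpt2* (chr4:107751473-107780812, minus strand), which reforms acyl-CoA on the matrix side, had 98.5 and 104 CPM in parietal cells but 106 and 130 CPM in mature pit cells. It was higher against the mean of the other types (0.84) and against isthmus, neck and chief cells, and was 0.12 ± 0.09 (SE) against pit cells with an adjusted p of 0.261 in edgeR. In dataset 1, where 4 of the 6 other types were pit types, *Cpt2* was at 99.4 and 97.3 CPM in parietal cells and 109 to 215 CPM in the pit types (−0.12, adjusted p = 0.365, edgeR).

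Of the 12 beta-oxidation members, 11 were higher in parietal cells of dataset 2. The acyl-CoA dehydrogenases, which begin each turn of the spiral, differed in size: *Acadvl* (very long chains, chr11:69900853-69906270, minus strand) was higher by 2.72, *Acadm* (medium) by 2.43, *Acadl* (long) by 2.18 and *Acads* (short) by 1.33 on the log2 scale. *Acadvl* had 503.5 and 510.4 CPM in parietal cells and 66.3 to 93.1 CPM in the other types. *Acads* had 76.0 and 84.0 CPM against 15.7 to 47.8 CPM in dataset 2, but in dataset 1 its parietal pools, at 59.4 and 54.1 CPM, overlapped antrum and corpus mature pit cells at 55.3 and 55.9 CPM in tube1. The trifunctional protein, which carries out the next steps on long chains, was higher in both subunits, *Hadhb* by 2.45 and *Hadha* by 1.53. Enzymes that act on shorter chains or on double bonds were higher by 1.96 (*Acat1*, mitochondrial acetoacetyl-CoA thiolase), 1.76 (*Echs1*), 1.69 (*Eci1*), 1.15 (*Hadh*) and 0.81 (*Decr1*). *Decr1* was higher by 0.52 in dataset 1, a call lost without the tube2 parietal sum (0.32, adjusted p = 0.0988, edgeR).

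*Acaa2*, the matrix 3-ketoacyl-CoA thiolase, was the single member not called higher in parietal cells against the mean of the other types of dataset 2. It had 214 and 206.5 CPM there, 356 and 363 CPM in mature pit cells, 306 and 312 CPM in pre-pit cells and 162 to 197 CPM in isthmus, neck and chief cells. Parietal cells thus lay between the pit cells and the remaining types. Against the mean of the other types the log2 fold change was −0.14 ± 0.06 (SE, adjusted p = 0.0657, edgeR), and with the pool as a block it was −0.14 with an adjusted p of 0.0321. It was lower than in pit cells by −0.67 (adjusted p = 1.79e-06), higher than in neck cells by 0.34 (adjusted p = 0.00219), and did not pass the test against isthmus (0.13) or chief cells (0.17). In dataset 1 it was −0.27 against the mean of the other types (adjusted p = 0.0216), with 334 to 433 CPM in mature pit cells and 209.5 and 242 CPM in parietal cells. That call was lost without the tube1 parietal sum (−0.18, adjusted p = 0.273, edgeR).

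The 3 genes that pass electrons from the acyl-CoA dehydrogenases to ubiquinone were all higher. *Etfdh* (chr3:79511086-79536807, minus strand), the membrane-bound oxidoreductase, had 243 and 289 CPM in parietal cells and 49.8 to 74.5 CPM elsewhere, a log2 fold change of 2.14. The flavoprotein subunits *Etfa* and *Etfb* were higher by 1.92 and 1.26. *Etfa* had 986 and 1080 CPM against 163 to 387 CPM, and *Etfb* had 439 and 464 CPM against 136 to 299 CPM.

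**Figure D3:**
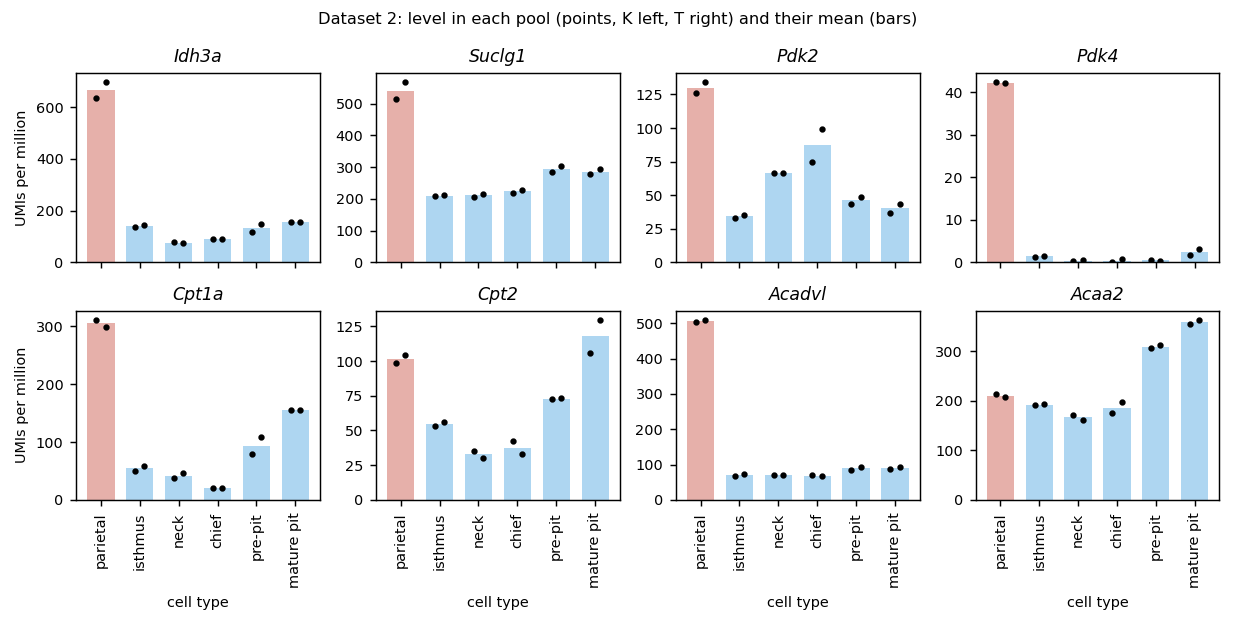
Level (y axis, CPM) of *Idh3a*, *Suclg1*, *Pdk2*, *Pdk4*, *Cpt1a*, *Cpt2*, *Acadvl* and *Acaa2* in the 6 epithelial types of dataset 2 (x axis), with a point for each pool and a bar for their mean. Parietal pools lie above all others for 6 genes, and mature pit cells are higher for *Cpt2* (106 and 130 CPM against 98.5 and 104) and *Acaa2*.

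Each comparison type was then taken on its own. Against neck cells all 37 members were higher (background 32.3% of genes higher and 34.4% lower), with a median log2 fold change of 2.02. Against isthmus cells 36 were higher (35.2% and 36.7%) with a median of 1.85, and against chief cells 36 (29% and 24.8%) with a median of 2.14. Against pit cells 35 were higher and *Acaa2* was lower (34.7% and 29.3%), with a median of 1.59. The median over all genes tested was −0.05, −0.08, 0.02 and 0.05 against isthmus, neck, chief and pit cells. The contrasts share the parietal sums. The role groups ranked differently by partner: carnitine shuttle genes had a median of 2.35 against chief cells and 1.02 against pit cells, beta-oxidation genes 2.10 and 1.36, and citrate cycle genes 2.23 and 1.70, while the pyruvate dehydrogenase genes had 1.89 and 2.01.

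Among the other types the levels of the members were ordered less evenly. Apart from parietal cells, mature pit cells had the highest mean of 17 members and pre-pit cells of 13, while chief cells had the highest of 4 and neck cells of 3. Chief cells had the lowest mean of 22 members. This ranking was not made over all genes, so whether these counts differ from the shares over all genes is not known. In the test of chief against neck cells, 15 members were lower and 4 higher (background 19.9% lower and 18.6% higher), and 18 were not called. The median log2 fold change was −0.138 for the members and −0.068 for all genes. The count of higher members was below its share over all genes. Of the 12 beta-oxidation genes 9 were lower in chief cells and none was higher, led by *Acadl* (−1.12), with 44.2 and 57.4 CPM in chief and 109 and 114 CPM in neck cells. *Decr1* (−0.77) and *Acads* (−0.72) followed, and *Cpt1a* of the carnitine shuttle was also lower (−1.04). The 4 higher members were *Mdh1* (0.48), *Idh2* (0.44), the NADP-dependent isocitrate dehydrogenase, *Pdk2* (0.41) and *Dld* (0.31).

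Mature pit and pre-pit cells differed in few members, 4 higher and 2 lower in mature pit cells (background 6.52% and 3.84%). These counts were near the shares over all genes. The higher members were *Pdk4* (2.398, from 4 and 9 UMIs in mature pit and 3 and 2 in pre-pit cells), *Cpt1a* (0.72), *Cpt2* (0.70) and *Ogdh* (0.64). *Acat1* (−0.66) and *Idh3g* (−0.56) were lower, the first with 188 CPM in both pools of mature pit cells against 294 and 300 CPM. With the pool as a block 7 members were higher, and without the mature pit sum of pool T only 1 was. The members called higher include 2 of the 3 carnitine shuttle genes.

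Isthmus cells, which hold the dividing progenitors, were compared with the mean of neck, chief and pit cells. Here 7 members were higher and 9 lower (background 23.9% and 17.5%), so both counts were near the shares over all genes. The changes were small: among the higher, *Pdk4* had 1.07 on the log2 scale and the 6 others 0.23 to 0.35, with *Idh3a* (0.35) and *Fh1* (0.33), fumarase, in front. *Pdk4* had only 0 to 9 UMIs in each pool of the compared types, so its value depends in part on the prior count. Its mean was 1.38 CPM in isthmus cells and 2.51 CPM in mature pit cells. The largest decrease was in *Pdk2* (−0.75, 33.0 and 35.6 CPM in isthmus cells), then in *Slc25a20* (−0.48), *Ogdh* (−0.34) and *Acaa2* (−0.33). These counts depended on the isthmus sums: without that of pool K 4 members were higher and 4 lower, and without that of pool T 1 and 4.

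The parietal cells of dataset 2 form 2 clusters, and these differed in 18 members. In the paper, cluster 1 was the parietal endpoint when cells were ordered by differentiation, and pre-parietal cells are described as well. Along that path the paper reported a transient rise of genes enriched for mitochondrial electron transport and oxidative phosphorylation. In cluster 1, 6 members were higher and 12 lower than in cluster 8, in a test that called 14.9% and 12.3% of 12922 genes. The count of higher members was near the share over all genes. Of the higher members 3 were of fatty acid oxidation: *Hadhb* (0.56), with 593 and 572 CPM in cluster 1 and 370.3 and 420.1 CPM in cluster 8, *Acadl* (0.39) and *Cpt1a* (0.35), and 3 were of the cycle: *Idh2* (0.48), *Suclg2* (0.32) and *Fh1* (0.24). The lower members were mostly of the cycle and pyruvate dehydrogenase. *Idh3a* had 593 and 606 CPM in cluster 1 and 870.3 and 911 CPM in cluster 8 (−0.57), followed by *Mdh2* (−0.44), *Cs* (−0.42), *Pdhb* (−0.41), *Suclg1* (−0.39), *Idh3b* (−0.37), *Dlat* (−0.33), *Mdh1* (−0.26) and *Dlst* (−0.23). *Eci1* (−0.39), *Acadvl* (−0.38) and *Etfb* (−0.24) of fatty acid oxidation were lower too. By group, 3 cycle genes were higher and 7 lower, and 2 beta-oxidation genes were higher and 2 lower.

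Both pools showed each of these differences, but their size beside the distance from other types varied by gene. The ratio of the mean of all parietal cells to that of the next highest type was 4.26 for *Idh3a*. It was only 1.84 for *Suclg1* and 1.63 for *Etfb*, so not all differences were small beside that distance. For *Idh3a*, the lower of the clusters still had 593 CPM, against at most 179 CPM, in mature pit cells, among the other clusters on the same scaling. The clusters also differed in the share of mitochondrial UMIs, 23.1% and 21.8% against 11.99% and 13.9%, and in the summed chief cell markers, whose part was not tested. Among cells with under 20% mitochondrial UMIs, 13 of the 18 calls were kept and *Suclg2*, *Fh1*, *Mdh1*, *Cpt1a* and *Acadl* did not pass. Without the pool K sum of either cluster, 2 members were higher.

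**Figure D4:**
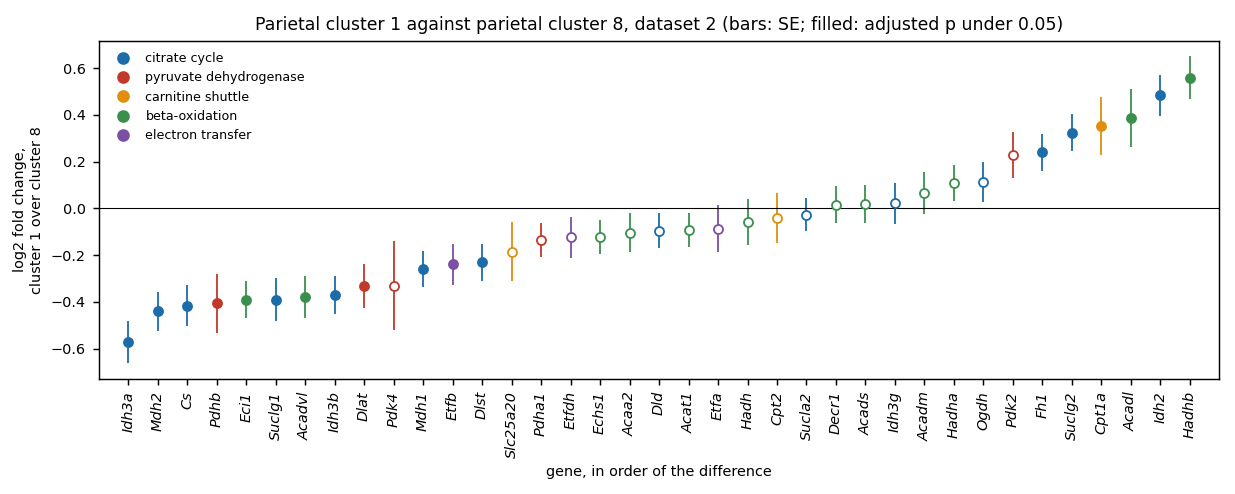
Log2 fold change of the members in parietal cluster 1 against cluster 8 of dataset 2 (y axis), in order of the difference, with bars of 1 standard error, colours for roles and filled points for genes past the test. The 6 higher members reach 0.56 (*Hadhb*) and the 12 lower ones −0.57 (*Idh3a*).

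Cluster 5-7 of dataset 1 had the second largest share of member UMIs. It expressed all 6 enterocyte markers, which summed to 46730 per 1000000 UMIs against 3941 for the pit list, the next highest, and is called enterocyte-like here. *Sult6b2*, *Apoc3* and *Cyp3a25* were among its leading genes by fold over the next cluster. Enterocytes of the small intestine absorb dietary fat. As its 18 and 52 cells were not in the fitted types, its levels (CPM scaled over all clusters of dataset 1) are described without a test. Its cells were shallower, with a median of 20183 and 15621 UMIs against 66087 and 60392 in parietal cells. In 7 members both pools of cluster 5-7 lay above both parietal pools, and in 26 below. In 4 they overlapped (*Pdk2*, *Pdk4*, *Acads* and *Hadha*). The same count was not made over all genes, so these numbers cannot be read as a trait of the members.

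The members above parietal cells included *Cpt2* and *Acaa2*, the 2 without a distinct parietal level in dataset 2. *Cpt2* had 404 and 358 CPM in cluster 5-7 and 110.3 and 109.7 CPM in parietal cells, a ratio of the means of 3.46. *Acaa2* had 746 and 900.3 CPM against 232.5 and 273 CPM (3.26), *Slc25a20* had a ratio of 2.48 and *Decr1* of 2.18. *Mdh2*, the mitochondrial malate dehydrogenase, had 3608 and 3914 CPM against 1658 and 1572 CPM, while *Hadh* (1.97) and *Ogdh* (1.07) were above by less. The members furthest below were *Idh2*, with 32.6 and 54.1 CPM against 733 and 686 CPM, *Fh1* (ratio 0.23) and *Acat1* (0.234). In both pools the enterocyte-like cells thus had more *Cpt2*, *Slc25a20* and *Acaa2* than parietal cells, and less *Cpt1a*, *Acat1* and *Idh2*.

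**Figure D5:**
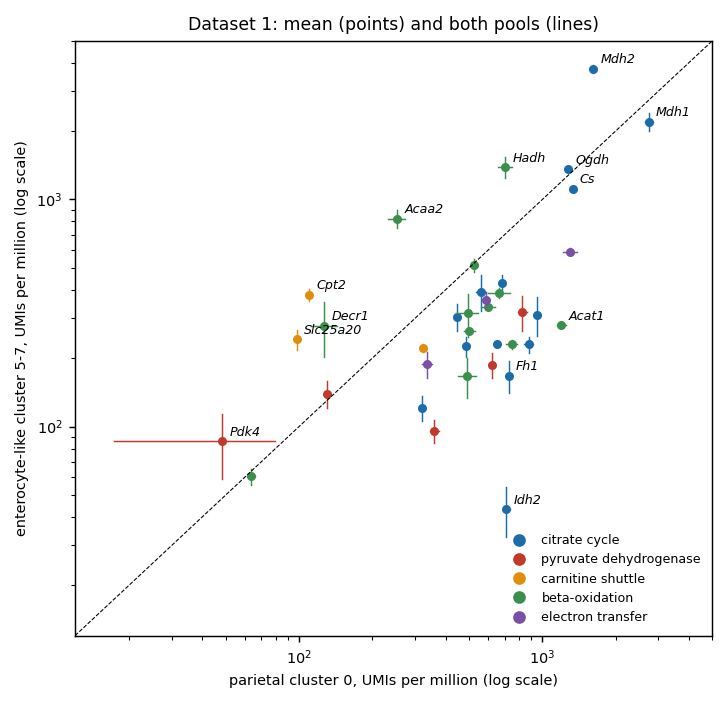
Mean level of each member (CPM, log axes) in parietal cluster 0 (x axis) and in cluster 5-7 (y axis) of dataset 1, with lines that span both pools and a dashed line of equal levels. *Cpt2* (ratio 3.46) and *Acaa2* (3.26) lie furthest above the dashed line and *Idh2* (0.061) furthest below.

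Genes of related pathways were taken from lists of gene names and compared in parietal cells against the mean of the other types of dataset 2, where the median over all genes was −0.03 and 35.2% of all genes were called higher and 32.6% lower. Of 18 other genes of the citrate cycle and pyruvate metabolism, 11 were higher and 3 lower, with a median log2 fold change of 1.00. *Mpc2*, a subunit of the mitochondrial pyruvate carrier (960.3 and 1050 CPM against 97.1 to 197 CPM), was higher by 3.02. *Me1*, the cytosolic malic enzyme (−2.98), and *Pck2*, mitochondrial phosphoenolpyruvate carboxykinase (−1.91), were lower. Of 69 nuclear genes of the respiratory chain and ATP synthase that could be tested, 68 were higher with a median of 2.01. The largest were *Cox6c* (2.66), a subunit of cytochrome c oxidase, and *Cycs* (2.65), cytochrome c.

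Of 14 genes tested that take up fatty acids and activate them for oxidation or storage, 9 were higher and 1 lower (median 1.07). *Fabp3*, a cytosolic fatty acid binding protein best known from heart, had 911 and 994 CPM in parietal cells and 2.57 to 19.5 CPM elsewhere (7.50), and *Cd36*, a fatty acid translocase of the plasma membrane, had 577 and 472 CPM against 1.75 to 8.63 CPM (7.12). The acyl-CoA synthetase *Acsl4* was lower (−0.64), a call that ended when only cluster 8 stood for parietal cells (−0.20, adjusted p = 0.145, edgeR). Among 14 other mitochondrial beta-oxidation genes 13 were higher and 1 lower (median 1.80), with *Acadsb*, which acts on short branched chains from isoleucine, at 3.79, *Pcca*, of propionyl-CoA carboxylase, at 2.60, and *Etfbkmt*, a methyltransferase of the *Etfb* product, at −1.31. In dataset 1, 6 of 12 uptake and activation genes were higher and 2 lower (median 0.56), where 31.7% and 26.9% of all genes were called.

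Peroxisomal beta-oxidation was less uniform, with 9 of 13 genes higher and 2 lower and a median of 0.54. Against pit cells 6 were higher and 4 lower (median 0.27), where 34.7% and 29.3% of all genes were called. In dataset 1, 5 of 12 were higher and 2 lower (median 0.16), where 31.7% and 26.9% of all genes were called. Against the mean of the other types of dataset 2, catalase, *Cat*, was higher by 3.05 and *Acox3* by 1.19, while *Pecr* was lower by −1.05. *Acox2* was lower by −1.71 from 3 and 11 UMIs in parietal cells, and its call ended without the chief sum of pool T (−0.45) or the parietal sum of pool K (−0.94), and with cluster 1 alone (−1.05). For ketone bodies 2 of 7 genes were higher, near the share over all genes, and 4 lower (median −0.30). Against chief cells alone 4 were higher and 1 lower, where 29% and 24.8% of all genes were called. The genes higher against the mean of the other types were *Oxct1* and *Bdh1* (1.84). *Oxct1*, which activates acetoacetate for use as fuel, had 2620 and 2496 CPM against 119 to 204 CPM (4.03). The lower included *Bdh2* (−3.26).

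Fatty acid synthesis had 4 of 15 genes higher and 9 lower, with a median of −0.95. Against chief cells alone 6 were higher and 4 lower, where 29% and 24.8% of all genes were called. *Acacb*, the acetyl-CoA carboxylase whose malonyl-CoA inhibits the enzyme of *Cpt1a*, was higher by 3.23 (98.7 and 89.8 CPM against 2.24 to 29.2 CPM), and the elongase *Elovl1* by 2.26. *Elovl5* (−4.68) and *Fads2* (−3.39), an elongase and a desaturase of polyunsaturated fatty acids, were lower. Of 19 glycolysis genes 16 were higher and none lower (median 1.15), led by *Pfkfb3* (5.09), which makes an activator of phosphofructokinase, and *Ldhb* (4.75), the heart-type lactate dehydrogenase subunit, with 1520 and 1635 CPM against 35.2 to 89.3 CPM. Falls were called in other comparisons of this list. In dataset 1, 10 of 15 glycolysis genes were higher and 4 lower, where 31.7% and 26.9% of all genes were called. The lower count was thus near the share over all genes. In dataset 2, 4 of 19 were lower against pit cells and 1 each against isthmus and neck cells. These counts were below the 29.3%, 36.7% and 34.4% of all genes called lower there. The 4 of dataset 1, named after their values were seen, were the lactate and pyruvate transporter *Slc16a1* (−2.15), *Pfkp* (−0.99), a subunit of phosphofructokinase, the glucose transporter *Slc2a1* (−0.83) and *Ldha* (−0.59), the other main lactate dehydrogenase subunit.

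Finally, 16 regulators of mitochondrial oxidation were examined, and 9 were higher and 6 lower (median 0.51), the latter near the share of lower genes over all. *Esrrb*, an oestrogen-related nuclear receptor, was at 20.8 and 19.0 CPM in parietal cells and 0 to 0.909 CPM in the other types (7.75, with no UMI in chief cells, so that the value depends in part on the prior count). *Perm1*, a regulator induced by PGC-1 coactivators, was at 21.2 and 26.98 CPM against 0 to 2.31 CPM (5.86). *Hnf4a* was lower by −2.60, with 17.4 and 14.8 CPM against 44.7 to 126 CPM. *Hnf4g* had 1 UMI in the parietal cells of pool K and none in pool T, and 0.385 to 1.78 CPM in the other types.

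As *Esrrb* belongs to receptors that bind an extended nuclear receptor sequence, the promoters of the members were searched for it. RefSeq promoters (GRCm38.p6, 250 bases before to 50 after the start of a gene) were found for 33 of the 37 members, not for *Idh3a*, *Acaa2*, *Acat1* and *Decr1*. The letters TNAAGGTCA, searched on both strands, were in 0 of the 33 and in 387 of 27025 promoters of all genes (1.43%). The shorter core AAGGTCA, which the longer motif contains and which was added after that result, was in 2 of 33 (6.06%) and in 1454 promoters (5.38%). The 2 stretches are printed as the only member promoters with the core, on the strand of the gene, with the core in capitals, where it reads in reverse orientation. That of *Acadm* is chr3:153944871-153944893 (minus strand), in which the core begins 249 bases before the start, and that of *Ogdh* is chr11:6292150-6292186 (plus strand), in which it begins 5 bases before.
Acadm: gTGACCTTcgggctccggtgaca
Ogdh: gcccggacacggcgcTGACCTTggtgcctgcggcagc
A match is a description of the letters and not a binding site, and the share of member promoters with the core was close to that of all genes.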

How the data were processed

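Cells had been sorted into 384-well plates, 6 in dataset 1 and 12 in dataset 2. The authors deposited whole UMI counts per gene name and cell, without normalization. Reads had gone through bcl2fastq 2.20.0.422, FASTX-Toolkit, STAR (GRCm39, Gencode M27) and Drop-seq tools. The authors clustered the cells with Seurat after removing cells with under 2500 genes, and their deposited annotation also gives the percent of mitochondrial UMIs per cell. The authors sorted a singlet gate; removal of doublets by computation is not given in the sources used here. The kept cells numbered 491 in dataset 1 (9242558 and 10664171 UMIs in the pools) and 3993 in dataset 2 (67173249 and 72438153). Well barcodes repeat between plates by design (145 and 384 of them).

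For each type and pool the UMIs of its cells were added up, since cells sharing a pool are no replicates. These sums were tested in R 4.3.3 with edgeR 4.0.16 (filterByExpr, TMM, quasi-likelihood test) and Benjamini-Hochberg adjustment over all genes, at 0.05. The steps were tested on simulated data. In dataset 2 the types were parietal (clusters 1, 8), isthmus (3, 5, 6, 9, 11), neck (0, 2, 7, 12), chief (10), mature pit (13) and pre-pit (4), 12 sums in one fit. In dataset 1 they were parietal, neck, isthmus-like and corpus and antrum mature pit and pre-pit, 14 sums. A further fit took the 14 epithelial clusters of dataset 2. Means of types are means of log2 values. UMIs are not divided by gene length, so levels are compared within a gene and not between genes. Intervals and floors cover counting error only. The members and lists were chosen with earlier results of these data known. All members are described, and each other list is represented by up to 2 genes per direction, ranked by the size of the change among called genes that moved alike in both pools and had 10 or more UMIs in each pool of the higher group. The glycolysis and respiratory chain lists had no called fall against the mean of the other types of dataset 2, so no lower gene was named by this rule. *Me1* stands in 2 lists. Some genes that this rule names are not reported here.

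The pools pair the samples, since all types of a pool came from the same mice and, according to the paper, from the same operator. Deviations of the same pool from the means of 2 types correlated over 8626 genes at 0.122 to 0.608 in the 15 pairs of types of dataset 2, and over 8492 genes at −0.037 to 0.067 in the 21 pairs of dataset 1. Alternatives were DESeq2 1.42.0, its size factors in edgeR, no filter, the pool as a block, the plate as unit, removal of the mitochondrial genome, cells under 20% mitochondrial UMIs, 1 parietal cluster at a time, and leaving out each sum. Gene coordinates are from GENCODE M39 on GRCm39.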

Additional observations from a re-analysis of the deposited data

Results flagged for a closer look

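In dataset 2, the share of member UMIs in neck cells of pool T was 0.647% on plate p02, apart from the other 5 plates of that pool, of which the highest had 0.629%. This was 1 of 12 groups of 6 plates in which the gap to the next plate was that large a part of the range, where chance gives about 1 in 20.

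*Cpt2* had a positive log2 difference between parietal cells and the mean of the other types in both pools of dataset 2 (0.84 in the fit) and a negative one in both pools of dataset 1 (−0.12, which did not pass the test). The difference between the datasets was not tested. Dataset 1 included antrum pit cells and had no chief type in its fit.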

How the results depend on the processing

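With the pool as a replicate block, 36 members were higher and 1 lower in parietal cells of dataset 2, 7 were higher in mature pit than in pre-pit cells, 10 were higher and 10 lower in isthmus cells, and no count of members higher in parietal cells changed. *Acaa2* was the 1 lower member of dataset 2 under the block, DESeq2, its size factors, the plate as unit, cells under 20% mitochondrial UMIs and cluster 1 alone, and in dataset 1 the lower count was 0 with DESeq2 and without the filter. Among cells under 20% mitochondrial UMIs 3 members were higher in cluster 1. Without the filter, 2 were higher in chief than in neck cells, and 11 higher and 5 lower in isthmus cells. Mature pit cells had 8 higher with DESeq2, and 12 higher and 7 lower with the plate as unit, where isthmus cells had 13 higher and 14 lower. Of the lists, 5 other citrate cycle genes were lower with the plate as unit and with cluster 8 alone, and 3 and 0 uptake genes in these. Leaving out 1 sum at a time, where a lone sum is assumed to vary like the other groups, gave 36 members higher in parietal cells of dataset 2, 34 to 35 higher and 0 to 1 lower in dataset 1 (0 without the tube1 parietal sum), 2 to 6 higher and 8 to 12 lower in cluster 1, 3 to 4 higher and 11 to 15 lower in chief cells, 1 to 5 higher and 2 to 2 lower in mature pit cells (1 without mature pit pool T, 2 without pre-pit pool K), 1 to 10 higher and 4 to 8 lower in isthmus cells, and 1 to 3 peroxisomal genes lower. The cause of these differences was not tested. Of the gene values, 1387 kept their direction and side of the threshold in dataset 2, 6 newly passed it and 4 no longer did. In dataset 1, 771 kept it and 5 no longer passed, among them *Acads* with DESeq2 (0.78, adjusted p = 0.0538). For cluster 1 against cluster 8, 589 kept it and 41 did not. No direction reversed among these. The 17 and 40 parietal cells of dataset 1 and the 73 and 107 chief cells of dataset 2 limit the precision.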
